A study of Sus scrofa with 8 samples.

Results

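Young neurons were taken as the cells of pig somites and myotome whose RNA held at least 2 of the neuron genes STMN2, ELAVL4, DCX and NEFL, with no SOX10 UMI and at most 2 COL1A2 UMIs. NEFM, the fifth gene of the rule, was not analysed here, so 4 genes were searched. The rule chose 4341 of 82394 kept cells (5.27%), and 3224 of them (74.3%) came from the libraries of embryonic day 21 (E21). A kept cell was a barcode with at least 200 genes, at most 30000 UMIs and at most 10% of its UMIs on the 13 mitochondrial genes. UMI counts give how many separate molecules of an RNA were captured with a barcode.

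Somites were sampled at E16, E18 and E21 and the myotome, the muscle-forming part of the somite, at E28. Each stage was measured in Tibetan pigs (ZZ) and in a Duroc by Tibetan cross (DZ), with no treatment or transgene in any group. Every stage of each breed was 1 library made from a pool of 5 embryos of a sow, which gave 8 libraries, named by stage and breed (E16-ZZ to E28-DZ). Where values are listed by stage, ZZ comes before DZ, and a run of 4 early or 4 late values follows the order of stages with ZZ first in each. Since no stage of a breed was repeated, the stages were compared as 4 early (E16 and E18) against 4 late (E21 and E28) libraries, and the tests measure the spread between these libraries, which differ in stage and breed.

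A new neuron leaves the cell cycle, grows an axon and then assembles synapses. Stathmins, tubulins and neurofilaments build and remodel its cytoskeleton, while RNA-binding proteins of the ELAVL family stabilise neuronal transcripts. Next to the somites lie the neural tube, which gives rise to motor neurons and interneurons, and the neural crest, which migrates through the somites and forms the sensory neurons of the dorsal root ganglia and the autonomic ganglia. The dissected tissue can therefore carry neurons of several origins.

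The 8 libraries held 6297 to 12173 kept cells with a median of 3496 to 6338 UMIs. The young neurons had a median of 6339.5 and 6978 UMIs at E16, 6431 and 4194 at E18 and 3768 to 4092 in the late libraries. The median of every early library thus lay above that of every late one. Any pair of libraries shared 17 to 48 barcode sequences among their kept cells. No barcode was removed as a doublet, but 374 young neurons (8.62%) were among the highest doublet scores, against 8.45% of all kept cells. By library the share was 8.33, 11.8, 14.8 and 10.5% early and 8.83, 7.72, 1.47 and 6.07% late. Of all kept cells, 317 of 6297, 899 of 10603, 849 of 10301 and 856 of 10347 were so marked early. In the late libraries 1078 of 11610, 831 of 10194, 945 of 10869 and 1185 of 12173 were. The young neurons thus lay above their library in every early library and below it in every late one, which the pooled shares hide. Without these cells, 113 of the named calls between the periods described below were kept and 2 were lost.

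The label was checked with 9 neuron markers that the rule did not use: TUBB3, ELAVL3, GAP43, INA, STMN3, MAPT, NSG2, SNAP25 and SYT1. At least 2 of them were found in 88.5% of the young neurons of E21-ZZ, 87.8% of E21-DZ and 65.2% of E28-DZ. The share was 20.8% and 26.9% at E16, 34.98% and 47.8% at E18 and 37.5% in E28-ZZ. Endothelial cells, which line vessels and were taken to lack these genes, reached 1.98 to 12.9%, and all other kept cells 1.54 to 12.4%. Endothelial cells that passed the rule had been left out of that group, 14 of 130 in E21-ZZ (10.8%) and at most 1.94% in any other library. The name was thus borne out for most cells of E21 and E28-DZ and not for most cells of E16, E18 and E28-ZZ, which are called young neurons below by the rule alone. In those 5 libraries 29.0 to 64.6% of the cells held none of the 9 markers, against 5.28% and 6.08% at E21 and 28.8% in E28-DZ.

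The weak members were those just inside the rule. With exactly 2 of the 4 rule genes (1534 cells), at least 2 further markers were found in 16.7% and 18.8% of the cells at E16, 22.4% and 27.2% at E18, 57.4% and 58.5% of those of E21, and 16.7% and 25.9% of those of E28. Cells just outside the rule, with 1 rule gene, reached 2.15 to 17.3%. With all 4 genes (1703 cells) the share was 97.9 to 100% in every library. TOP2A, a topoisomerase of dividing cells, was found in 45.2 to 72.5% of the early cells with exactly 2 rule genes, against 12.7 to 25.4% of the late ones. Early and late young neurons thus differed in how many of them carried the other neuron genes, and results across stages are given below also for the 3364 cells with at least 2 of the 9 markers, named marker-supported young neurons. The part of this difference in each result was not tested.

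**Figure D1:**
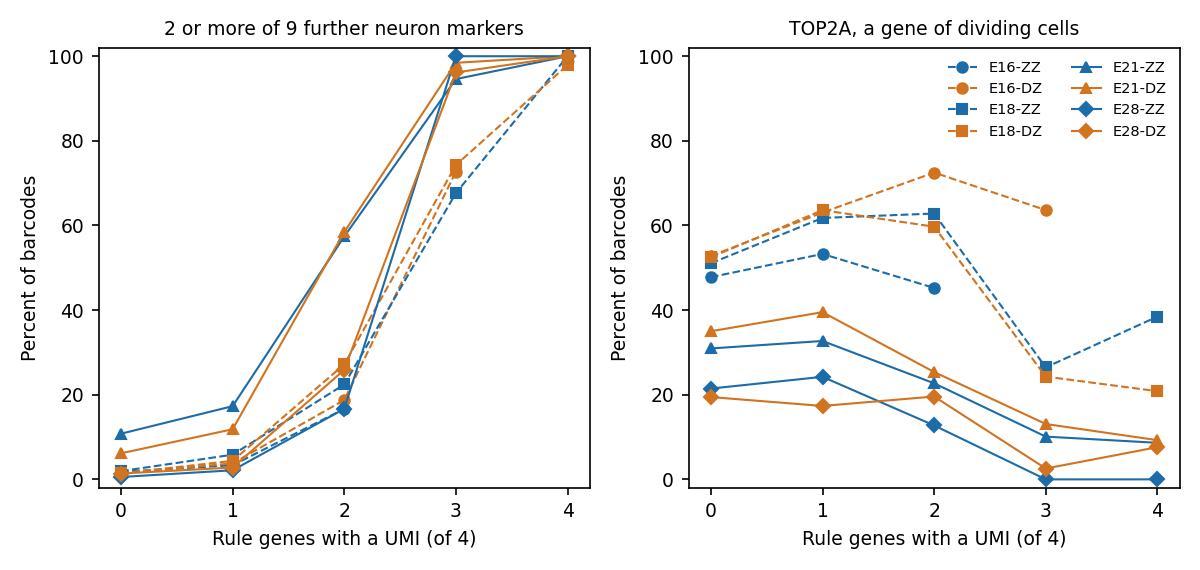
Share of kept cells with no SOX10 UMI and at most 2 COL1A2 UMIs in which at least 2 of 9 further neuron markers (left) or TOP2A (right) were found, in percent, against the number of the 4 rule genes found. Each line is a library, dashed for early and solid for late, and points of fewer than 10 cells are left out. Cells with 2 rule genes lie at 16.7 to 58.5% on the left, while those with 4 lie at 97.9 to 100%.

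Young neurons were most abundant at E21 in both breeds. Their share of the kept cells was 0.762% in E16-ZZ (48 cells; exact binomial 95% interval 0.563 to 1.01%), 0.877% in E16-DZ (93 cells; 0.709 to 1.07%), 1.97% in E18-ZZ (203 cells; 1.71 to 2.26%) and 3.13% in E18-DZ (324 cells; 2.80 to 3.49%). It was 19.4% in E21-ZZ (2253 cells; 18.7 to 20.1%), 9.53% in E21-DZ (971 cells; 8.96 to 10.1%), 1.25% in E28-ZZ (136 cells; 1.05 to 1.48%) and 2.57% in E28-DZ (313 cells; 2.30 to 2.87%). The intervals cover counting error only. Both E21 libraries lay above all others, and the E28 libraries lay within the range of the early ones, so the early and late shares overlapped.

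Early libraries averaged 1.69% ± 1.11 (SD, n = 4) and late libraries 8.19% ± 8.31 (SD, n = 4). The difference of 6.50 percentage points did not pass the exact two-sided permutation test over 70 splits (p = 0.200, with 0.0286 the smallest value the design allows). Without E21-ZZ it was 2.76 points, so this library carried much of it. The share within a stage was higher in DZ at E16, E18 and E28 and higher in ZZ at E21. E28 is also the only stage taken from the myotome, so stage and tissue cannot be told apart there.

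**Figure D2:**
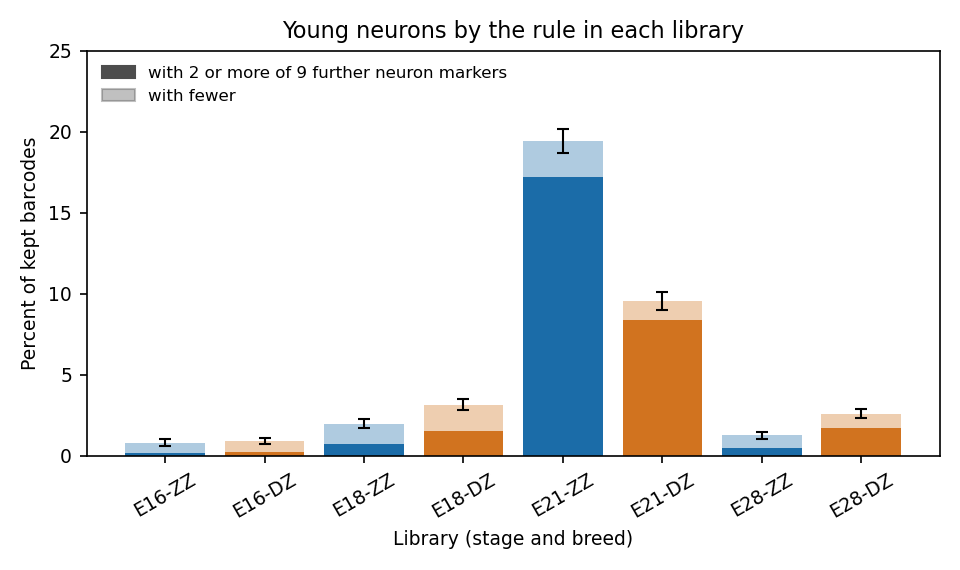
Young neurons as a percentage of the kept cells in each library, ordered by embryonic day, with bars from 0 and exact binomial 95% intervals of the whole bar (counting error only). Blue is ZZ and orange DZ, and the dark part of a bar is the cells with at least 2 of the 9 further markers. E21-ZZ (19.4%) and E21-DZ (9.53%) stand above the other 6 libraries, which lie between 0.762 and 3.13%.

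The rule genes differed among themselves in how often they marked a young neuron. STMN2 (ENSSSCG00000006160, chromosome 4: 56952968 to 57006744, Sscrofa11.1) encodes a stathmin that regulates microtubules in growing axons, and it was found in 56.7 to 97.3% of the young neurons. Its level, in CPM (counts per 10 to the sixth UMIs of the summed young neurons, TMM-normalised), was 353 and 407 at E16, 574 and 1038 at E18, then 6114 and 5245 at E21, and lastly 3855 and 5608 at E28. Below, the ratios to other cells, values within gates, sums over lists and CPM of cells chosen more strictly are without TMM, so they are on a slightly different scale. All late libraries lay above all early ones. Of the 4 genes STMN2 was found most widely outside neurons, in 5.09 to 40.8% of endothelial cells, whose median depth of 6978.5 to 10746 UMIs exceeded that of the young neurons.

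NEFL (ENSSSCG00000009649, chromosome 14: 8991321 to 8996900), the light neurofilament chain, was found in 65.7 to 79.6% of the young neurons and 1.89 to 6.58% of the endothelial cells. Its CPM ranged from 173 to 406 in the early and from 1506 to 2719.7 in the late libraries. ELAVL4 (ENSSSCG00000037291, chromosome 6: 161784146 to 161928953), an RNA-binding protein of neurons, was found in 41.9 to 83.3%, with 71.4 to 215 CPM early and 379 to 562 CPM late. DCX (ENSSSCG00000012585, chromosome X: 91317671 to 91644572), which binds microtubules in migrating neurons, was the rarest at 22.6 to 68.5%, with 31.4 to 89.0 CPM early and 148.6 to 332 CPM late. ELAVL4 and DCX were found in at most 3.96% of the endothelial cells of any library. Endothelial cells that passed the rule had been left out, which by itself lowers the endothelial shares of all 4 genes. These 4 genes chose the cells, so their levels are a description and were not tested.

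Young neurons were then set against all other cells of the same library. By the lowest ratio over the 8 libraries, TUBB3, the neuronal beta-tubulin, came first: its CPM in young neurons was 29.5 to 338.9 times that in all other kept cells. ELAVL3, a further ELAVL protein, followed with a lowest ratio of 19.8, and TLCD3B with 19.4. DCX (17.9) and ELAVL4 (15.6) took the next places. KLHL35 (14.6), the splicing regulator SRRM4 (14.3), the transcription factor ONECUT2 (11.6), SMPD3 (11.4), the neurogenic factor NEUROD1 (11.098), STMN2 (10.2) and STMN3 (9.58) came after them. ELAVL2, IGFBPL1, SCG3, INA, TAGLN3, GDAP1L1 and ONECUT1 and the unnamed gene ENSSSCG00000009648 completed the 20, down to a lowest ratio of 4.67. The cells were chosen by expression, so these ratios describe the choice and carry no test.

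GAP43, a growth-cone protein used in the label check, was found less widely early. It was found in 12.5% of the young neurons of E16-ZZ and 13.8% of E18-ZZ, against 34.2% and 16.8% of their endothelial cells. These endothelial cells were deeper (median 10289 and 10198.5 against 6339.5 and 6431 UMIs), so the shares do not tell whether GAP43 was background in the young neurons. In E18-ZZ the 47 cells with at least 3 rule genes held 87 UMIs of it (344 CPM). In DZ it was found more often in young neurons, with 20.4% at E16 and 25.3% at E18 against 17.3% and 9.90% of the endothelial cells. In the late libraries it was found in 40.4 to 71.3% of the young neurons against 5.26 to 13.3% of the endothelial cells.

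Subtypes were sought with gates of transcription factors and transmitter genes, a cell joining the gate of which it held the most markers, at least 2. The sensory gate used POU4F1, DRGX, PRPH and RUNX3, among others. The motor gate used MNX1, LHX3, LHX4, SLC18A3, SLC5A7 and CHAT, the interneuron gate LHX1, LHX5, PAX2, LBX1, EN1, EVX1, BARHL1 and BARHL2, and the autonomic gate PHOX2A, HAND2, TH and DBH, among others. The gates took 586 sensory, 405 interneuron, 116 motor and 36 autonomic cells, and 3198 young neurons joined none. Many were held by the minimum of 2 markers: 290 sensory, 322 interneuron, 105 motor and 15 autonomic cells. Others held 1 marker of a gate without joining it: 611 for the sensory, 601 for the interneuron, 511 for the motor and 646 for the autonomic gate. PHOX2A had no UMI in the marker-supported cells. Of the 590 cells with at least 2 sensory markers, 4 also had 2 interneuron and 1 also had 2 motor markers.

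The sensory gate held 0 and 1 young neurons at E16 (0 and 1.08%) and 2 and 1 at E18 (0.985 and 0.309%). It held 242 (10.7%; exact binomial 95% interval 9.49 to 12.1%) in E21-ZZ, 131 (13.5%; 11.4 to 15.8%) in E21-DZ, 43 (31.6%; 23.9 to 40.1%) in E28-ZZ and 166 (53.0%; 47.3 to 58.7%) in E28-DZ. The early and late libraries did not overlap, and both E28 libraries lay above both E21 libraries. The means were 0.592% ± 0.522 and 27.2% ± 19.5 (SD, n = 4 each). The difference of 26.6 points had an exact permutation p of 0.0286, the smallest possible, and an adjusted p of 0.114 over the 4 gates, so it did not pass the correction. Leaving out any of the 8 libraries gave 18.0 to 32.1 points. The difference was 11.5 points without the E28 libraries (exact permutation p = 0.0667), 16.7 when cells were thinned to 1500 UMIs (p = 0.0286, exact), 44.8 in the marker-supported cells (p = 0.171, exact) and 52.0 in the cells with at least 3 rule genes (p = 0.133, exact), the last 2 with fewer early libraries.

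Among cells with at least 3 rule genes, the sensory gate held 225 of 1720 in E21-ZZ (13.1%), 115 of 699 in E21-DZ (16.5%), 32 of 34 in E28-ZZ (94.1%) and 146 of 170 in E28-DZ (85.9%). At E28, then, nearly all cells with the fuller rule signature were in the sensory gate. When every young neuron with at least 1500 UMIs was thinned to that number, which left out 0, 3, 7 and 21 early and 40, 26, 5 and 7 late cells, the sensory share of the young neurons was 0% in the 4 early libraries, 4.61% and 5.71% at E21 and 19.8% and 36.6% at E28, in the same order of stages.

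The interneuron gate was filled mainly at E21, with 287 cells (12.7%; 11.4 to 14.2%) in E21-ZZ and 96 (9.89%; 8.08 to 11.9%) in E21-DZ. It held 0 of 48 cells of E16-ZZ, which by the limit of 3 counts allows a share in the gate of up to 6.25% (upper end of the exact interval 7.40%), 4 cells of E16-DZ (4.30%), and 10 and 8 at E18 (4.93 and 2.47%). At E28 it held 0 of 136 cells in ZZ, which allows up to 2.21% (2.68% by the exact interval), and 0 of 313 in DZ, which allows up to 0.958% (1.17%). These limits are on cells that hold 2 gate markers at this depth, not on interneurons. The motor gate held 4 and 11 cells at E18 (1.97 and 3.395%), 82 and 19 at E21 (3.64 and 1.96%) and none at E16 or E28. The autonomic gate held at most 1.23% of any library, with 24 cells in E21-ZZ. No cell passed these 3 gates in the myotome libraries, whereas the sensory gate had its highest share there. Single markers of them were found at E28 in cells outside the gate. They were found in 12 and 88 cells for the autonomic, 5 and 12 for the interneuron and 0 and 3 for the motor gate. The late minus early differences were 2.73, 0.0577 and 0.0147 points for interneuron, motor and autonomic cells, none past the exact permutation test (p at least 0.457, n = 4 and 4). Without the E28 libraries they were 8.39, 1.46 and 0.461 points (exact permutation p = 0.0667, 0.267 and 0.400), where 0.0667 is the smallest p that 4 against 2 libraries allow.

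**Figure D3:**
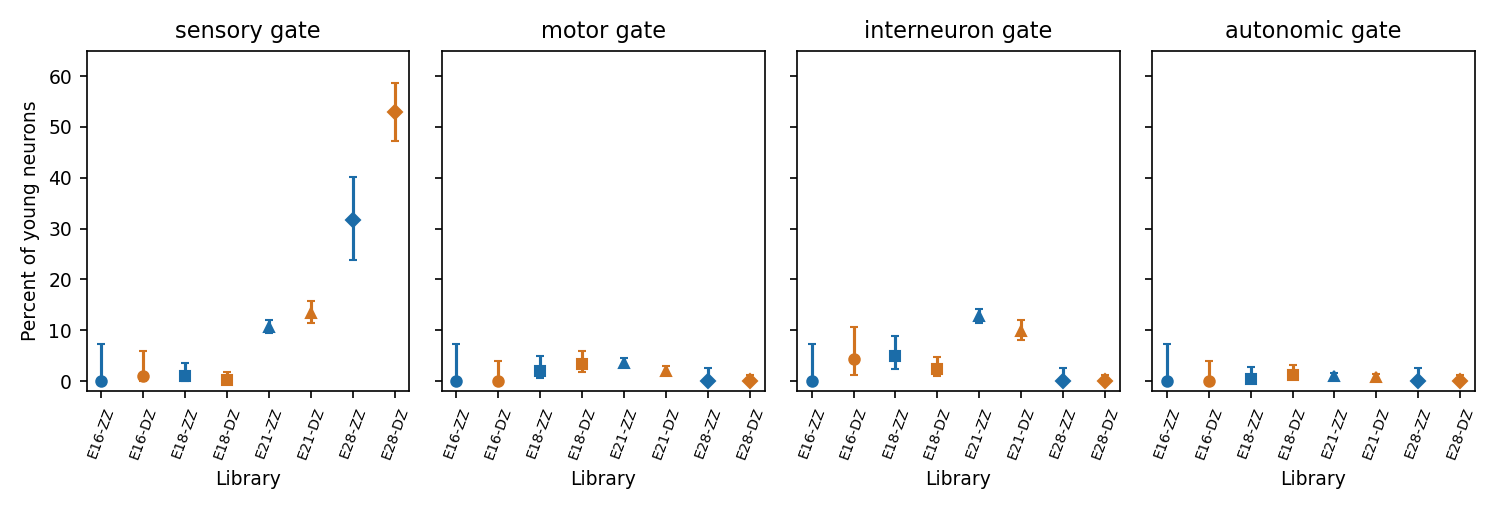
Share of the young neurons of each library in the sensory, motor, interneuron and autonomic gates, in percent, with exact binomial 95% intervals that cover counting error only. The sensory share is at most 1.08% in the early libraries and 31.6 and 53.0% at E28, and the interneuron share is highest at E21 (12.7 and 9.89%).

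Within the gates, genes outside the gate lists were read as CPM of the summed cells, without a test, for every gate and library with at least 20 cells. In the sensory gate, SNCG, a synuclein abundant in peripheral neurons, was at 3050.4 and 2785 CPM at E21 and 3534 and 3249 at E28, against 82.3 to 237 in the interneuron, motor and autonomic gates at E21. The LIM factor ISL1 was at 547 to 791 CPM in the sensory gate and 5.67 to 15.1 in the interneuron gate. EBF1, a transcription factor of differentiating neurons, was at 1003 to 1613 CPM in the sensory gate and at most 156 in the others. POU4F1, a defining sensory factor and a gate member, was nearly absent: 2.95 CPM in E21-DZ and 0 in the other 3 sensory sums, so the other members carried this gate.

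Several genes lay apart between the sensory-gate cells of E21 and E28, named after their values were seen. The peptide gene SST was at 563 CPM in E21-ZZ and 634 in E21-DZ, against 4.18 and 0 at E28. NTRK3, the receptor of neurotrophin-3, was at 311 and 322 CPM at E21 and at 87.7 and 66.3 at E28. Other genes were on the opposite side. The substance P precursor gene TAC1 was at 21.4 and 19.2 CPM at E21 and 100.3 and 204 at E28. RET, a receptor of the GDNF family, was at 3.45 and 10.3 CPM at E21 and 71.0 and 48.9 at E28, and the adhesion gene NRCAM at 14.5 and 29.5 and then 159 and 132. For these genes both E21 libraries lay on one side of both E28 libraries, and with 2 libraries a stage this was not tested. E21 was taken from somites and E28 from the myotome, so stage and tissue cannot be told apart here.

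The interneuron gate of E21 was the one with inhibitory transmitter genes. GAD2, an enzyme that makes GABA, was at 50.2 and 79.4 CPM, and SLC32A1, the vesicular GABA transporter, at 59.3 and 85.1, while both were at 0 in the sensory, motor and autonomic sums. ROBO3, a receptor of commissural axons, was at 317 and 411 CPM there and at most 10.3 in the other gates. SLC17A6, a vesicular glutamate transporter, was at 39.2 and 48.2 CPM in the same sums. Motor-gate cells of E21-ZZ had 434 CPM of the guidance ligand gene SLIT2, 305 of SLIT3, 206 of SEMA3C and 303 of the LIM factor ISL2. Of the genes that made up the gate, MNX1, a defining motor factor, was at 8.77 CPM in them, the LIM factor LHX3 at 179.8 and the choline transporter gene SLC5A7 at 246. The 24 autonomic-gate cells of E21-ZZ stood out for the opioid precursor gene PENK (1467 CPM), the chemokine receptor gene CXCR4 (818), the peptide genes GAL (659) and TAC3 (383), and GATA3 (595).

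**Figure D4:**
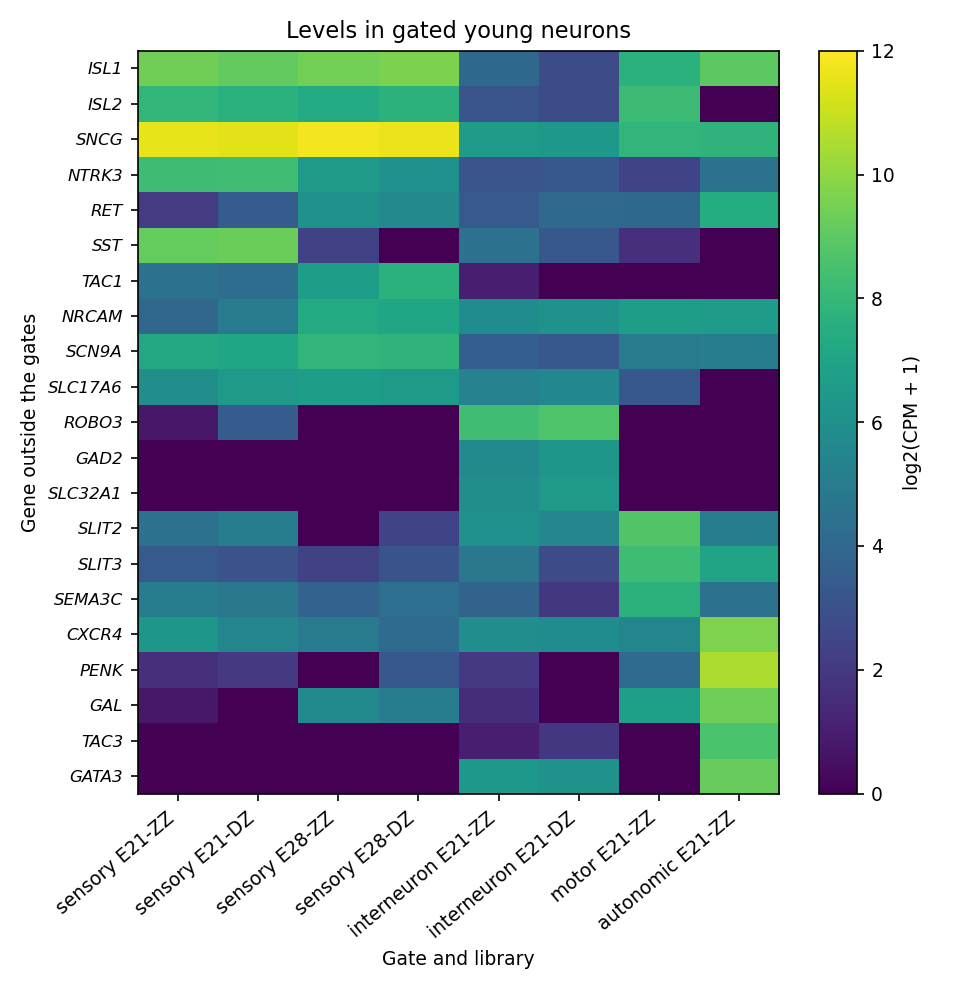
Level of 21 genes outside the gate lists in the summed young neurons of each gate and library with at least 20 cells, as log2(CPM + 1), with one column per gate and library. The genes shown were chosen after their values were seen. SNCG is bright in the 4 sensory columns (2785 to 3534 CPM), ROBO3 in the 2 interneuron columns (317 and 411) and PENK in the autonomic column (1467).

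Late and early young neurons were compared gene by gene by edgeR's quasi-likelihood test on counts summed per library, with the breed as a covariate and Benjamini-Hochberg adjustment at 0.05. Of 9285 genes tested, 1515 were higher (16.3%) and 1504 lower (16.2%) in the late libraries. The late libraries came from somites at E21 and myotome at E28, and the early ones from somites only. In the marker-supported young neurons, where E16-ZZ had only 10 cells and was dropped, 708 of 8274 tested genes were higher (8.56%) and 693 lower (8.38%), the 9 markers left out. All 1249 genes called in both had the same direction, which is 41.4% of the first and 89.2% of the second set. Of the 3019 called genes 85.4% had no overlap between early and late libraries, against 33.5% of all tested genes. The counts of list members below are read against these shares. A member was tested if it passed the filter on low counts, which a gene high in the late libraries alone could do, so the counts over tested members lend no support of their own. Of the genes found in the matrices, 18 of 18 identity, 20 of 24 synaptic, 22 of 23 cytoskeleton, 10 of 26 channel, 8 of 12 neurotrophic, 30 of 35 guidance, 9 of 14 temporal, 12 of 20 neurogenesis and 12 of 13 proliferation genes passed it. In the subtype and transmitter lists 7 of 12 sensory, 6 of 10 motor, 10 of 23 interneuron, 3 of 6 autonomic and 7 of 20 transmitter genes did. Most interneuron and transmitter genes were thus not tested. In the cells with at least 3 rule genes, where both E16 libraries were dropped, 236 of 8374 genes were higher (2.82%) and 232 lower (2.77%). There 10 of 18 identity, 10 of 21 synaptic, 11 of 22 cytoskeleton, 2 of 13 channel, 3 of 10 neurotrophic, 6 of 33 guidance and 3 of 9 temporal genes were higher and none lower, while of 12 neurogenesis factors 1 was higher and 2 lower, and 1 of 4 heterochronic genes was lower.

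Genes of neuronal identity were higher late. Of 18 list members tested, 17 were higher and none lower, with a median log2 fold change of 3.22 against 0.00 over all tested genes. The RNA of MAPT, the microtubule protein tau, was at 6.47, 8.57, 16.3 and 23.0 CPM in the early and at 452, 291, 259 and 564 in the late libraries. Its groups lay far apart, with a log2 fold change of 4.65 ± 0.37 (SE; adjusted p = 7.5e-05, edgeR). In the early ZZ libraries it was found in 4.17% and 9.85% of the young neurons against 5.28% and 10.3% of the deeper endothelial cells. Whether its early level there is background was not tested, and the fold rests on the late level. GAP43 was at 77.7, 60.0, 73.1 and 162 CPM early and 1423, 1347, 822 and 1463 late, again without overlap (log2 3.76 ± 0.31, adjusted p = 7.5e-05, edgeR). ELAVL3 went from at most 51.1 CPM early to 79.2 to 169 late, also without overlap (log2 1.90 ± 0.31, adjusted p = 0.0013, edgeR). In the cells with at least 3 rule genes, ELAVL3 was at 126 and 130 CPM at E18 and 184 to 248 late, and it was not called (log2 0.52 ± 0.23, adjusted p = 0.22, edgeR).

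The share of cells with these markers differs between the periods, as described above, and that difference moved with these results. In marker-supported cells 6 of the 8 members that could be tested were higher and none lower, with a median of 1.69 against 0.02 over all genes. STMN4, a stathmin, had a log2 fold change of 4.33 ± 0.29 over all young neurons and 3.11 ± 0.32 in the marker-supported ones (adjusted p = 4.6e-05 and 0.00044, edgeR). RTN1, a reticulon of neuroendocrine cells, had 4.60 ± 0.48 and 3.77 ± 0.49. For both genes the value was lower in the supported cells and stayed called. In cells with at least 3 rule genes, where both E16 libraries were dropped, TUBB3 had a log2 fold change of 0.40 (adjusted p = 0.27, edgeR) against 2.26 over all young neurons, so its call was lost there.

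Genes of the synapse were higher late as well. All 20 members tested of the synaptic vesicle and release list were higher late, with a median log2 fold change of 2.86, and 14 of 19 in the marker-supported cells, with a median of 2.33. SV2A, a glycoprotein of synaptic vesicles, had 1, 1, 0 and 1 UMIs in the 4 early libraries and 622, 336, 22 and 99 in the late ones, or 56.2, 73.1, 36.3 and 58.8 CPM (adjusted p = 7.5e-05, edgeR). It was close to undetected early and present in every late library. SNCG rose from 0, 7.14, 1.42 and 25.6 CPM to 612, 625, 1405 and 1936 (log2 6.92 ± 0.70, adjusted p = 0.00013, edgeR). RAB3A, a GTPase of vesicle release, rose from 8.52 to 18.9 CPM to 77.6 to 161 (log2 3.35 ± 0.34, adjusted p = 0.00013, edgeR).

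Ion channel and transmitter receptor genes followed. Of 10 tested, 8 were higher and none lower, and 5 of 10 in the marker-supported cells. GRIA2, an AMPA receptor subunit, was at 0, 1.43, 2.13 and 2.56 CPM early and 54.8, 74.4, 54.5 and 69.5 late, without overlap (log2 4.99 ± 0.31, adjusted p = 2.7e-05, edgeR). The sodium channel gene SCN9A reached 37.2 to 140.1 CPM late against at most 8.18 early (log2 4.27 ± 0.65, adjusted p = 0.00093, edgeR), and was highest at E28, whereas SCN3A (11.6 to 45.9 CPM late) was highest at E21. SCN9A was not called in the cells with at least 3 rule genes (adjusted p = 0.091, edgeR). Of the transmitter genes, 3 of 7 tested were higher (SLC17A6, TH and NPY) and 1 lower (TAC3). SLC17A6 rose from 5 UMIs in all early libraries together to 28.2, 38.7, 47.9 and 58.8 CPM late (adjusted p = 0.00011, edgeR). The calls of TH, the enzyme of catecholamine synthesis, and of the peptide gene NPY were lost when single libraries were left out, TH without E18-ZZ or E28-DZ and NPY without any one of E16-ZZ, E16-DZ, E18-ZZ, E21-ZZ or E28-DZ, and neither was called in the marker-supported cells.

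Of the cytoskeleton and transport list, 19 of 22 tested members were higher late and none lower, with a median of 2.35, and 14 of 18 in the marker-supported cells, with a median of 1.15. TUBB2B, a beta-tubulin of young neurons, was at 732, 727, 1007 and 1538 CPM early and 6612, 6291, 3528 and 5894 late (log2 2.49 ± 0.27, adjusted p = 0.00018, edgeR). KIF1A, a motor that carries synaptic vesicle precursors, went from 6.47 to 21.0 CPM to 80.9 to 133.4 (log2 3.07 ± 0.30, adjusted p = 0.00012, edgeR). Neither gene's groups overlapped. PRPH, the intermediate filament of peripheral neurons, rose in 2 steps, from 9.71, 11.4, 3.55 and 2.56 CPM early to 154 and 119.7 at E21 and 974 and 2044 at E28 (log2 7.31 ± 1.13, adjusted p = 0.0010, edgeR). PRPH is a member of the sensory gate. In the cells with at least 3 rule genes its log2 fold change was 6.79 ± 1.79 and the call was lost (adjusted p = 0.062, edgeR).

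MAP2, a microtubule protein of dendrites, behaved differently. It was at 54.3 to 132 CPM early, 459 and 414 at E21 and 26.4 and 32.1 at E28. The late libraries thus lay on both sides of the early ones, and the log2 fold change of 1.47 ± 0.80 did not pass the test (adjusted p = 0.19, edgeR). DCC, the netrin receptor of commissural axons, had the same order, with 6.47 to 19.9 CPM early, 57.9 and 121 at E21 and 3.30 and 2.97 at E28 (adjusted p = 0.12, edgeR). Both genes were named after their values were seen.

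Receptors of neurotrophic factors were mostly higher late, 6 of 8 tested and none lower, and 4 of 8 in the marker-supported cells. NTRK3 had 1 UMI in the early libraries together and 58.0, 73.1, 34.7 and 44.5 CPM late (adjusted p = 7.5e-05, edgeR). NTRK2, the receptor of brain-derived neurotrophic factor, was at 0 to 3.24 CPM early and 28.1 to 79.6 late (log2 4.47 ± 0.53, adjusted p = 0.00025, edgeR). Neither receptor overlapped between periods.

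Of the axon guidance and adhesion list, 12 of 30 tested members were higher and 1 lower, and 8 of 32 higher and none lower in the marker-supported cells. NCAM1, a neural adhesion molecule, was at 100.4, 146, 152 and 185 CPM early and 1051, 1115, 529.9 and 599 late (log2 2.49 ± 0.28, adjusted p = 0.00020, edgeR). L1CAM, another adhesion molecule of axons, went from 2.84 to 12.9 CPM to 36.3 to 75.5 (log2 3.37 ± 0.39, adjusted p = 0.00022, edgeR). CNTN2, a contactin of early axons, rose from at most 12.1 CPM to 148 to 177 (log2 4.46 ± 0.35, adjusted p = 7.5e-05, edgeR), and NRP1, a semaphorin receptor, from at most 17.7 CPM to 51.2 to 121 (log2 2.56 ± 0.34, adjusted p = 0.00041, edgeR). The groups of these 4 genes did not overlap.

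Transcription factors were read class by class. Of the temporal factors, genes that mark successive times of neuron birth in the spinal cord, 5 of 9 tested were higher and none lower, and 4 of 8 in the marker-supported cells. NFIA was at 3.24, 1.43, 0.710 and 3.07 CPM early and 51.8, 37.0, 109 and 90.9 late (log2 5.05 ± 0.55, adjusted p = 0.00018, edgeR). Taken here and below as the change in young neurons minus the fitted difference, the log2 change of all other kept cells in NFIA was 4.47. Those cells were not fitted alone, and the difference of the changes was not called (adjusted p = 0.46, edgeR). NFIB was at 57.0, 55.7, 99.1 and 64.1 CPM late against at most 4.97 early (adjusted p = 0.00012, edgeR), a call lost in the cells with at least 3 rule genes (adjusted p = 0.11, edgeR). Within E28 it stood at 163 and 175 CPM in the cells of no gate and at 8.35 and 10.9 in the sensory gate. BCL11A, a zinc finger factor of sensory neurons, had 2 UMIs in the early libraries together and 67.1, 47.9, 41.3 and 62.4 CPM late (adjusted p = 7.5e-05, edgeR).

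Of 12 neurogenesis factors tested, 8 were higher and none lower, with a median of 1.49, but in the marker-supported cells 1 was higher and 1 lower, with a median of 0.33. NEUROD1 was at 3.24, 15.7, 26.3 and 36.8 CPM early and 67.2, 95.7, 162 and 229.8 late (log2 2.51 ± 0.46, adjusted p = 0.0025, edgeR). In the marker-supported cells its log2 fold change was 1.27 ± 0.52 (adjusted p = 0.12, edgeR), and in those with at least 3 rule genes 0.35 ± 0.48 (adjusted p = 0.73, edgeR). EBF1 kept its call, with 3.66 ± 0.37 and 2.87 ± 0.44 (adjusted p = 0.00014 and 0.0029, edgeR). NEUROD4 had a log2 fold change of 0.06 ± 0.40 over all young neurons and was lower late in the marker-supported cells (log2 -1.19 ± 0.29, adjusted p = 0.019, edgeR).

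Subtype genes were then read over all young neurons. Of 7 sensory genes tested, 5 were higher and none lower. In the marker-supported cells 3 of 6 were higher, and in the cells with at least 3 rule genes none of 8 was called, at a median log2 fold change of 3.37. The calls of ISL1 and TLX3 below were lost in the latter cells too (adjusted p = 0.055 and 0.13, edgeR). RUNX3, a factor of sensory neurons, had no UMI in the early libraries and 105, 57, 18 and 67 UMIs in the late ones (adjusted p = 0.0035, edgeR). Of 6 motor genes 2 were higher, ISL2 and ISL1 (11.4 to 54.2 CPM early, 239 to 496 late), both also expressed by sensory neurons. Of 10 interneuron genes tested, out of 23 found in the matrices, 1 was higher, TLX3. Of 3 autonomic genes tested, out of 6, 1 was higher, TH, and 1 lower. In the marker-supported cells 2 of 6 motor genes were higher, 1 of 9 interneuron genes was higher and 1 lower, and 1 of 3 autonomic genes was lower. LHX1, a gate member, was at 0, 7.14, 12.8 and 2.56 CPM early, 75.3 and 40.0 at E21 and 0 in both E28 libraries.

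**Figure D5:**
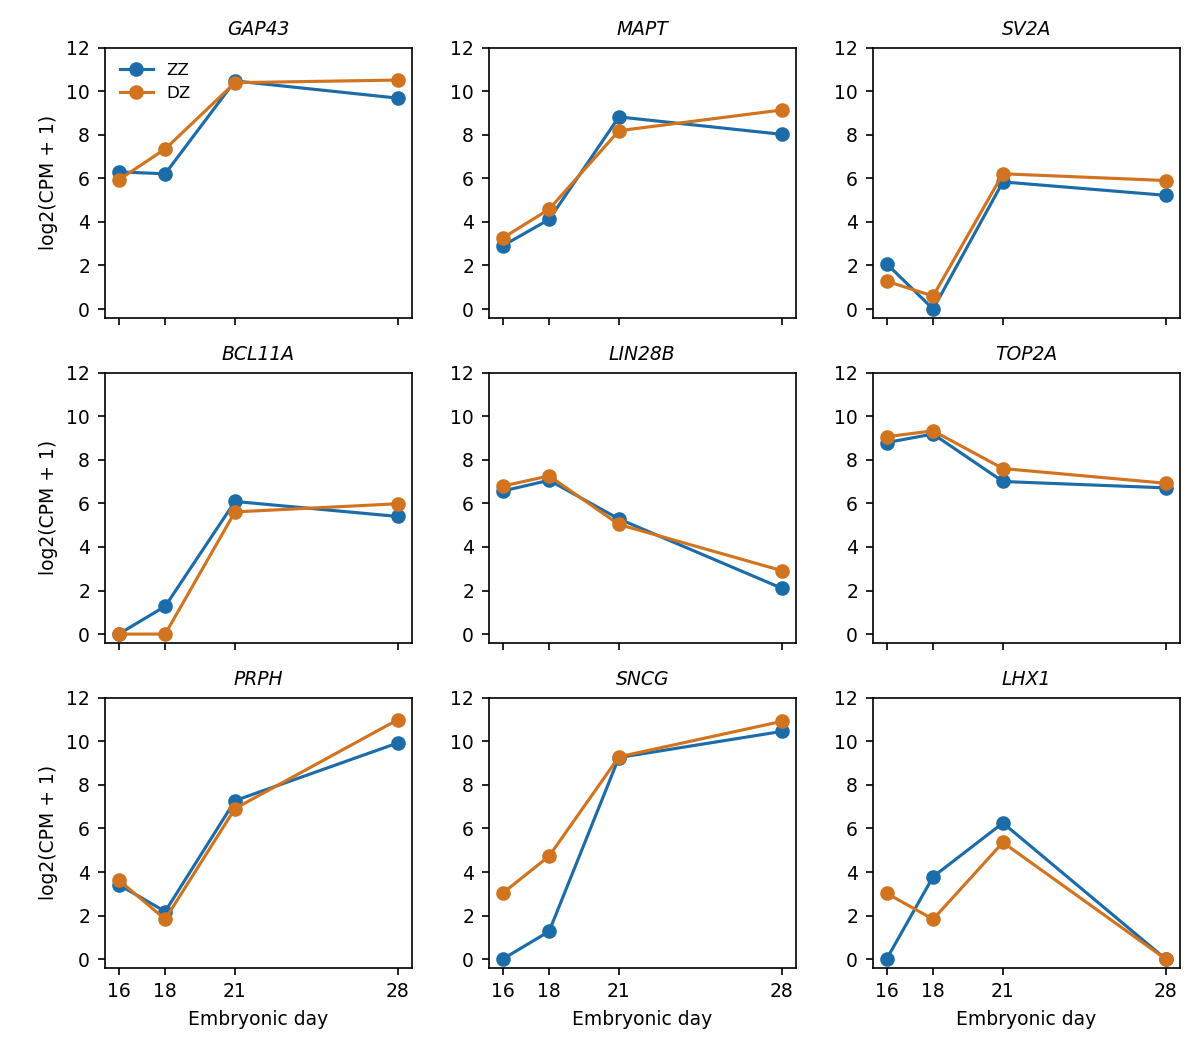
Level of 9 genes in the summed young neurons of each library, as log2(CPM + 1), against embryonic day, with one line per breed. GAP43, MAPT, SV2A and BCL11A stand higher at E21 and E28, LIN28B and TOP2A lower, PRPH and SNCG are highest at E28, and LHX1 is highest at E21 and at 0 at E28. The genes shown were chosen after their values were seen.

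Genes of cell division were lower late in 12 of 12 tested members, with a median log2 fold change of -2.10, in 11 of 11 in the marker-supported cells and in 5 of 11 in the cells with at least 3 rule genes. TOP2A was at 444, 534, 582 and 645 CPM early and 128, 193, 104 and 121 late (log2 -2.01 ± 0.20, adjusted p = 0.00012, edgeR). In the other kept cells it changed by -0.17, and the difference of the changes was called (log2 -1.84 ± 0.14, adjusted p = 3.3e-06, edgeR). BIRC5, a regulator of mitosis, fell from 168 to 197 CPM to 32.7 to 51.3 (log2 -2.12 ± 0.19, adjusted p = 8.8e-05, edgeR), and MCM2, a subunit of the replicative helicase, from 110.4 to 146 CPM to 17.8 to 44.6 (log2 -2.22 ± 0.23, adjusted p = 0.00015, edgeR). None of these genes' groups overlapped. TOP2A was not called in the cells with at least 3 rule genes (log2 -2.57 ± 0.80, adjusted p = 0.096, edgeR).

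Of the neural progenitor genes 2 of 10 tested were lower, PAX6 and ID3, and none higher. In the marker-supported cells 5 of 10 were lower, PAX6, ID3, HES5, NES and NOTCH1, and in the cells with at least 3 rule genes 1 of 8, NOTCH1. PAX6 was at 12.9, 51.4, 36.2 and 89.0 CPM early, 12.0 and 16.1 at E21 and 0 in both E28 libraries (log2 -2.33 ± 0.72, adjusted p = 0.030, edgeR). Its early and late values overlapped, and the call was lost without E16-DZ, E18-ZZ, E18-DZ or E21-DZ. ID3, an inhibitor of neurogenic factors, was at 241 to 444 CPM early and 85.1 to 213 late (log2 -1.09 ± 0.32, adjusted p = 0.025, edgeR), and its call was lost without either E16 or either E21 library and in the cells with at least 3 rule genes.

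The heterochronic RNA genes, which control developmental timing, were lower late in 4 of 5 tested, and 2 of 4 in the marker-supported cells. LIN28B (chromosome 1: 71173291 to 71296131), an RNA-binding protein that blocks let-7 maturation, was at 93.9, 110.0, 132.7 and 153 CPM early, 38.0 and 31.8 at E21 and 3.30 and 6.53 at E28 (log2 -2.41 ± 0.50, adjusted p = 0.0048, edgeR). In both breeds it was higher at E18 than at E16, then lower at E21 and lowest at E28. The change was similar in the marker-supported cells (log2 -2.60 ± 0.58, adjusted p = 0.013, edgeR). The other kept cells changed by -1.95, and the difference was not called (adjusted p = 0.17, edgeR). IGF2BP1, an RNA-binding protein, fell from 26.1 to 31.4 CPM to 6.604 to 10.5 (log2 -1.56 ± 0.25, adjusted p = 0.0012, edgeR), a call lost in the cells with at least 3 rule genes (adjusted p = 0.15, edgeR). IGF2BP2 had a log2 fold change of 0.15 ± 0.21 and did not pass.

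Markers of other cell types moved with the stage as well. Summed over 5 epithelial genes, young neurons had 643 to 4494 CPM early and 0 to 37.5 late, and 4 of 4 tested genes were lower, with a median of -6.49. KRT8, a keratin, was at 3176, 1447, 767 and 407 CPM early and 20.9, 13.5, 0 and 0.594 late (log2 -6.90 ± 0.84, adjusted p = 0.00028, edgeR). The other kept cells changed by -5.90 in the same gene, and the difference of the changes was -1.003 ± 0.28 (adjusted p = 0.021, edgeR). EPCAM was at 0.218 to 0.594 CPM in 3 late libraries and 0 in E28-ZZ.

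Endothelial genes summed to 98.6 to 193 CPM early and 16.9 to 96.1 late, with 2 of 4 tested lower (PLVAP and PECAM1). Those of connective tissue and cartilage summed to 378 to 630 CPM early and 310 to 2311 late, with 3 of 8 tested higher (MATN4, LUM and DCN), and E28-ZZ was the highest library. The call of DCN was lost on leaving out any one of 5 libraries, both E16, E18-DZ and both E28, and MATN4 and LUM were called in the marker-supported cells (2 of 5). Skeletal muscle genes summed to 177 to 432 CPM early and 376 to 1585 late, with E28-DZ highest, 2 of 8 tested higher (MYL1 and MYMK) and 1 lower (DES). The call of MYMK was lost on leaving out any one of 6 libraries, all but E18-ZZ and E21-ZZ, and that of MYL1 without E16-DZ or E18-DZ, and in the marker-supported cells none of 4 muscle genes was higher and DES was lower. E28-DZ was also the library in which 12.5% of the young neurons held at least 2 of the muscle genes MYOD1, MYOG, MYMK, ACTC1, MYL1 and MYH3, against at most 3.23% elsewhere. Erythroid genes ran from 154.9 to 7665 CPM early and 206 to 8658 late, with 1 of 3 tested lower (HBB, a call lost without E16-DZ, E18-ZZ or either E21 library). Neural crest and glial genes summed to 771 to 1221 CPM early and 495 to 718 late, with 2 of 3 tested lower (ERBB3 and SCRG1), and macrophage genes stayed at or below 15.7 CPM with none tested. The part of these cells' RNA in the results above was not tested.

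Of the 10 immediate-early genes tested, which respond to dissociation and stimulation within minutes, none was called in either direction over all young neurons. In the marker-supported cells 1 of 6 tested was higher, FOSB (log2 3.32 ± 1.00, adjusted p = 0.045, edgeR), which was also the 1 of 6 called in the cells with at least 3 rule genes. In the marker-supported cells it had 3 UMIs in E16-DZ (18.7 CPM) and 0 at E18, against 12.0, 32.8, 3.79 and 34.7 CPM late. The periods thus overlapped, and the dropped E16-ZZ stood at 31.9 CPM. In the difference of stage changes from the other kept cells, described below, where 9.92% of all genes were lower, 2 of 12 were lower, EGR1 (log2 -1.11 ± 0.27, adjusted p = 0.011, edgeR) and FOS (log2 -0.99 ± 0.29, adjusted p = 0.030, edgeR).

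Outside the lists, the called genes with the largest changes among those without overlap between periods were named by size. Higher late were EEF1A2, a neuronal and muscle elongation factor, at 0, 1.43, 4.26 and 4.60 CPM early and 189, 234, 117 and 198 late (log2 5.74 ± 0.35, adjusted p = 2.7e-05, edgeR). GNAO1, the G protein alpha subunit of neurons, rose from 2.86 to 12.8 CPM to 144 to 298 (log2 4.75 ± 0.37, adjusted p = 7.5e-05, edgeR). SHOX2, a homeobox factor, was at 0 to 15.3 CPM early and 114 to 189 late (log2 4.69 ± 0.61, adjusted p = 0.00039, edgeR). NRN1, NPDC1, VSTM2L, ITPRID1 and RBMS3 had log2 fold changes between 4.44 and 5.20. All 8 of these were also called in the marker-supported cells, and all but NRN1 and VSTM2L in the cells with at least 3 rule genes.

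The remaining 2 were genes of other tissues. MYLPF, a myosin light chain of fast muscle, was at 0 to 6.47 CPM early and 41.0, 132, 41.3 and 436 late. OGN, a proteoglycan of connective tissue, was at 9.23 to 12.9 CPM early, 21.5 and 22.0 at E21 and 429 and 255 at E28. OGN was not called in the marker-supported cells (log2 1.59 ± 0.78), and its call was lost without E18-ZZ or E28-DZ. Neither MYLPF nor OGN was called in the cells with at least 3 rule genes.

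Lower late was KRT14, a keratin, from 476, 170.0, 116 and 42.4 CPM to 5.51, 4.57, 1.65 and 2.38 (log2 -5.32 ± 0.65, adjusted p = 0.00028, edgeR). PRTG, an adhesion molecule of early embryonic tissue, fell from 129, 283, 197 and 356 CPM to 16.0, 20.9, 0 and 1.78 (log2 -4.21 ± 0.57, adjusted p = 0.00048, edgeR). HMGA1, a chromatin protein of embryonic cells, fell from 1894, 2017, 1476 and 1385 CPM to 433, 362, 244 and 154 (log2 -2.50 ± 0.30, adjusted p = 0.00027, edgeR). AHCY, an enzyme of the methionine cycle, fell from 187 to 327 CPM to 26.1 to 38.0 (log2 -2.72 ± 0.21, adjusted p = 7.5e-05, edgeR). NPM3, PLK1, SLC16A3, DSP, APOE and APOA1 made up the 10, with log2 fold changes between -4.23 and -2.45, of which PLK1, DSP and APOE were not called, and APOA1 not tested, in the cells with at least 3 rule genes.

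To see which changes went beyond those of the surrounding cells, the stage change in young neurons was set against that of all other kept cells of the same libraries, with the library as a block. Of 14361 genes tested, 1182 changed more upward (8.23%) and 1425 more downward (9.92%) in young neurons. The difference was higher for 11 of 18 identity genes, 16 of 23 synaptic genes and 19 of 22 cytoskeleton genes, none of them lower. For proliferation genes it was lower for 12 of 13. Neurogenesis factors had 3 higher and 1 lower of 14 (median -0.20), and guidance genes 7 and 3 of 35. Temporal factors had 4 and 1 of 11, neurotrophic genes 5 and 1 of 12 and heterochronic genes 1 and 1 of 6. Of 23 channel genes 9 were higher and none lower. These counts are over all young neurons, fewer of which held the 9 markers early, and were not made in the marker-supported cells. The median difference over all genes was -0.02, against 1.73 for identity, 2.01 for synaptic and 1.73 for cytoskeleton genes. The balance of these calls was not stable. It was 1587 higher and 1175 lower without the cells that held at least 2 muscle genes, and more genes were also higher than lower when any 1 of the E16, E18 or E21 libraries was left out, with 1047 and 711 without E18-ZZ and 1190 and 1059 without E16-ZZ. With at least 3 rule genes it was 131 higher and 319 lower, and in the marker-supported cells 507 higher and 543 lower.

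The clearest differences by adjusted p included CADM3, a synaptic cell adhesion molecule, whose CPM in young neurons rose from 17.7 to 29.1 early to 67.7 to 113 late. It changed by 2.20 on the log2 scale in young neurons and by -1.26 in the other cells, a difference of 3.46 ± 0.25 (adjusted p = 2.1e-06, edgeR). The value for the other cells is again the change in young neurons minus the fitted difference. CRMP1, a protein of semaphorin signalling, changed by 2.54 and -0.69 (difference 3.23 ± 0.21, adjusted p = 1.2e-06, edgeR), and KIF5C, a neuronal kinesin, by 1.60 and -1.24 (difference 2.84 ± 0.20, adjusted p = 1.9e-06, edgeR). FGF13, an intracellular regulator of sodium channels and microtubules, changed by 3.98 and 0.92 (difference 3.06 ± 0.23, adjusted p = 2.7e-06, edgeR). RUFY3, RAB6B, CRIP2, PPP1R1A and ENSSSCG00000008686, a gene with no name in the files, were higher too, and CENPF, a kinetochore protein, was the 1 of 10 that was lower (difference -1.76 ± 0.13, adjusted p = 2.1e-06, edgeR).

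Between the breeds no gene of the young neurons was called. DZ was compared with ZZ within each stage, and 0 of 9285 genes passed edgeR's quasi-likelihood test (0%), with 631 at an unadjusted p under 0.05 and 2 called by DESeq2. In the marker-supported cells 21 of 8274 genes were called, and with at least 3 rule genes 9 of 7620. Leaving out 1 library gave 0 to 8 calls, with 8 without E18-ZZ and 8 without E18-DZ. Each comparison within a stage is 1 library against 1 other, so within a stage breed and the pooled litter cannot be told apart. The test sets the breed against the spread of these comparisons over the stages.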

How the data were processed

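Libraries were made with the 10x Chromium 3′ v3 kit. The authors deposited UMI counts per gene and barcode made by Cell Ranger on Sscrofa11.1 with Ensembl release 98. The file headers name version 3.1.0 for E16 and 3.0.2 for the other libraries, so version and stage cannot be told apart for E16. E18, E21 and E28 share a version. Without E16, 1606 genes were called late against early, and 1481 of them were among the 3019, all in the same direction. The deposited counts were whole numbers of 21301 genes, neither normalised nor corrected between libraries. The study's own doublet calls and cell types were not used here.

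Barcodes were filtered and young neurons chosen by the rule stated at the start. The members and gene lists were chosen with earlier results of these data known. Doublets were scored with Scrublet in scanpy 1.11.5, and the highest scores, 0.8% per 1000 barcodes, were removed in an alternative only. SOX2, MKI67 and PAX8 were not analysed here, so the progenitor comparison group rested on PAX6 alone.

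Counts were summed over the young neurons of a library (at least 20 cells) and tested with edgeR 4.0.16 (limma 3.58.1, R 4.3.3): TMM, filterByExpr, quasi-likelihood test, Benjamini-Hochberg at 0.05. The rule genes were left out of the calls. DESeq2 1.42.0 was an alternative. The summed counts ran from 355148 to 10213431 UMIs, so low levels in E16-ZZ are the least precise. Library shares were compared by exact two-sided permutation, with Python 3.11.15, numpy 2.4.6, scipy 1.17.1 and pandas 2.3.3. Scripts were tested on simulated data with known changes. Gene coordinates are RefSeq's on Sscrofa11.1.

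Some genes that entered the gates, the list counts and the tests are not reported here. Named genes were the rule genes, up to 6 called members per list by adjusted p, the gate genes, the 10 largest changes each way outside the lists without overlap at a mean of at least 50 CPM, the 10 lowest adjusted p of the difference of changes, and the 20 highest lowest-ratios to other cells. Genes named otherwise are said to be so, or are list members given for comparison.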

Additional observations from a re-analysis of the deposited data

Results flagged for a closer look

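In 296 groups of 4 libraries (the early or the late values of a share or a named gene), 22 had a highest or lowest library far from the other 3 by Dixon's ratio. The limit used flags about 1 in 20 groups of normally distributed values. Groups of 3 zeros and 1 positive value are always flagged, so the count cannot be set against that rate. Several were early values of a few UMIs above zeros: BARHL1 at 8.57 CPM in E16-DZ, BCL11A at 1.42, EPHA5 at 0.710 and MYOG at 0.710 in E18-ZZ, and CHAT at 0.511, DRGX at 0.511, NTRK3 at 0.511 and SLC18A3 at 1.02 in E18-DZ.

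Other early values were far above the rest: AHCY at 327 CPM and TLX3 at 12.9 in E16-ZZ, OGN at 12.9 in E16-DZ, MYMK at 8.52 in E18-ZZ, and RAB3A at 18.9, SHOX2 at 15.3, STMN3 at 113 and TLCD3B at 40.4 in E18-DZ.

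Of the late values, ELAVL3 was far below the others in E28-ZZ at 79.2 CPM. LUM, a connective tissue gene, was far above the others in E28-ZZ at 324 CPM, MYL1, a muscle gene, in E28-DZ at 118, GNAO1 at 298 and NTRK2 at 79.6 in E28-DZ, and KRT18 at 11.3 in E21-ZZ.

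The stage change of 2607 genes differed between young neurons and all other kept cells by the test of the difference itself. The 10 with the lowest adjusted p differed by 3.46 (CADM3), 3.23 (CRMP1), 3.16 (PPP1R1A), 3.06 (FGF13), 3.01 (RUFY3), 2.95 (CRIP2), 2.84 (KIF5C), 2.78 (RAB6B), 1.503 (ENSSSCG00000008686) and -1.76 (CENPF) on the log2 scale.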

How the results depend on the processing

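No difference in the share of young neurons passed the test under any alternative (5.39 to 7.62 points; 12.8 without E28, 5.64 without E16, where 15 splits allow no p below 0.0667; 2.76 to 8.82 leaving out 1 library). Genes called late against early numbered 3019. They were 468 with at least 3 rule genes, 1401 in marker-supported cells and 1606 without E16, where fewer cells or libraries entered. Without E28, the only myotome stage, 3940 were called, and 2725 of the 3019 were among them, all in the same direction. Leaving out 1 library gave 2225 to 3248. The difference of stage changes gave 2607 calls. It gave 450 with at least 3 rule genes, 1050 in marker-supported cells, 1358 without E16 and 3825 without E28. Leaving out 1 library gave 1758 to 3057. Its split moved to 1587 higher and 1175 lower without muscle-gene cells and 1576 and 1128 with at least 1000 UMIs. Breed gave 0 calls, 9 with at least 3 rule genes, 21 in marker-supported cells, 1 without E16 and 2 by DESeq2. It gave 69 with no filter on low counts and 0 to 8 leaving out 1 library.

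Motor, interneuron and autonomic shares changed direction: motor to -6.68 and interneuron to -2.55 and autonomic to -1.20 points with at least 3 rule genes; -2.44, -2.72 and -0.181 in marker-supported cells; motor -0.161 and autonomic -0.0896 without DCX in the rule; -0.115 and -0.126 without high doublet scores; motor -0.318 when thinned; motor -1.28 and autonomic -0.417 without E16; autonomic -0.000876 with at least 1000 UMIs. Leaving out 1 library gave -0.689 to 0.742 (motor), 0.371 to 4.62 (interneuron), -0.191 to 0.282 (autonomic) and 18.0 to 32.1 (sensory). The cause was not tested. Of 120 called named genes under these alternatives, 2436 values kept direction and call, 150 lost the call and 1 reversed, SRRM4 at -0.35 with at least 3 rule genes. With at least 3 rule genes 57 genes kept their call and 50 lost it, without E16 98 and 22, and in marker-supported cells 86 and 16; the 10 genes of the difference kept theirs in all 180. No replicate block could be fitted, as the labels give no replicate numbers. Breeds were compared within stages, and the difference of stage changes had the library as a block.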
